A study of Mus musculus with 6 samples.

Results

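This section describes 35 genes of fatty acid breakdown and ketone body production in the mitochondrion, measured in mouse liver. They were chosen by symbol, as enzymes and carriers of the pathway (30 genes) together with 5 genes of its fasting response. The choice was made with earlier results of these data known. The deposited table held 22183 gene symbols. All 35 were among them, and all 35 were among the 14681 genes that passed the filter on low counts.

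RNA of 6 liver samples, 1 library each, was sequenced to ask what extra butyrylcholinesterase made by hepatocytes does in a liver injured with DDC. All 6 came from BucheKI/KI-Hep mice on chow and all 6 were labelled as treated with DDC, 3 of them in the group S2W-PBS and 3 in the group S2W-DOX, called PBS and DOX here. The labels do not expand DOX, DDC or S2W, and give neither age nor sex, nor whether each library came from its own animal, so p-values measure the spread between these libraries. No group without DDC and none without the genotype was analysed here. Effects of DOX itself and of the higher Bche therefore cannot be told apart, and neither group can be set against a liver without DDC. Bche, the gene of butyrylcholinesterase, stood at 177, 177 and 206 CPM (counts scaled to a common library size) in PBS 1 to 3 and at 1938, 1867 and 1763 CPM in DOX 1 to 3. Total counts were 32476725 to 41921404 per library.

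Fatty acids are activated to acyl-CoA by synthetases, carried across the inner mitochondrial membrane as carnitine esters, and shortened by rounds of dehydrogenation, hydration, a further oxidation and thiolysis. The electrons reach the respiratory chain through electron transfer flavoprotein, and in the fasting liver much of the acetyl-CoA is turned into the ketone bodies acetoacetate and beta-hydroxybutyrate. The nuclear receptor PPAR-alpha is the best known activator of these genes in hepatocytes, and Pdk4, Fgf21 and Angptl4 are among its targets outside the pathway itself.

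Genes at most steps of the pathway were called lower in the DOX libraries, but not at every step. Carnitine shuttle genes, the trifunctional protein, the enzymes for unsaturated chains and the ketone enzyme Bdh1 fell, with Bdh1 5.74-fold lower. The 3 electron transfer genes, the medium-chain dehydrogenase Acadm, the hydratase Echs1 and the thiolase Acaa2 did not pass the test, which does not show equal levels. Acadm, Acaa2 and the electron transfer gene Etfdh had every DOX value below every PBS value. Echs1 and the electron transfer gene Etfa had every DOX value above. By edgeR's quasi-likelihood test at an adjusted p under 0.05, 20 of the 35 genes were lower in DOX, where 14.0% of all genes tested were lower, and 0 were higher, where 13.5% of all genes were higher and 27.5% changed in either direction. At an unadjusted p under 0.05, 22 were lower and 0 were higher, and DESeq2 also called 20 lower and 0 higher. Of the 35, 4 were at least 2-fold lower and passed the test (Crat, Decr1, Bdh1 and Pdk4), against 4.99% of all genes. In 28 of 35 genes the 3 PBS values and the 3 DOX values did not overlap, against 44.1% of all genes. In 25 of these the DOX values were the lower ones (22.3% of all genes) and in 3 the higher ones (21.8% of all genes). The median log2 fold change of the 35 genes was -0.52, with a range of -2.52 to 0.23, while the median of all genes tested was -0.01 with quartiles of -0.33 and 0.28. Summed over the 35 genes, the share of each library's counts was 0.756 to 0.812% in PBS and 0.481 to 0.554% in DOX.

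**Figure D1:**
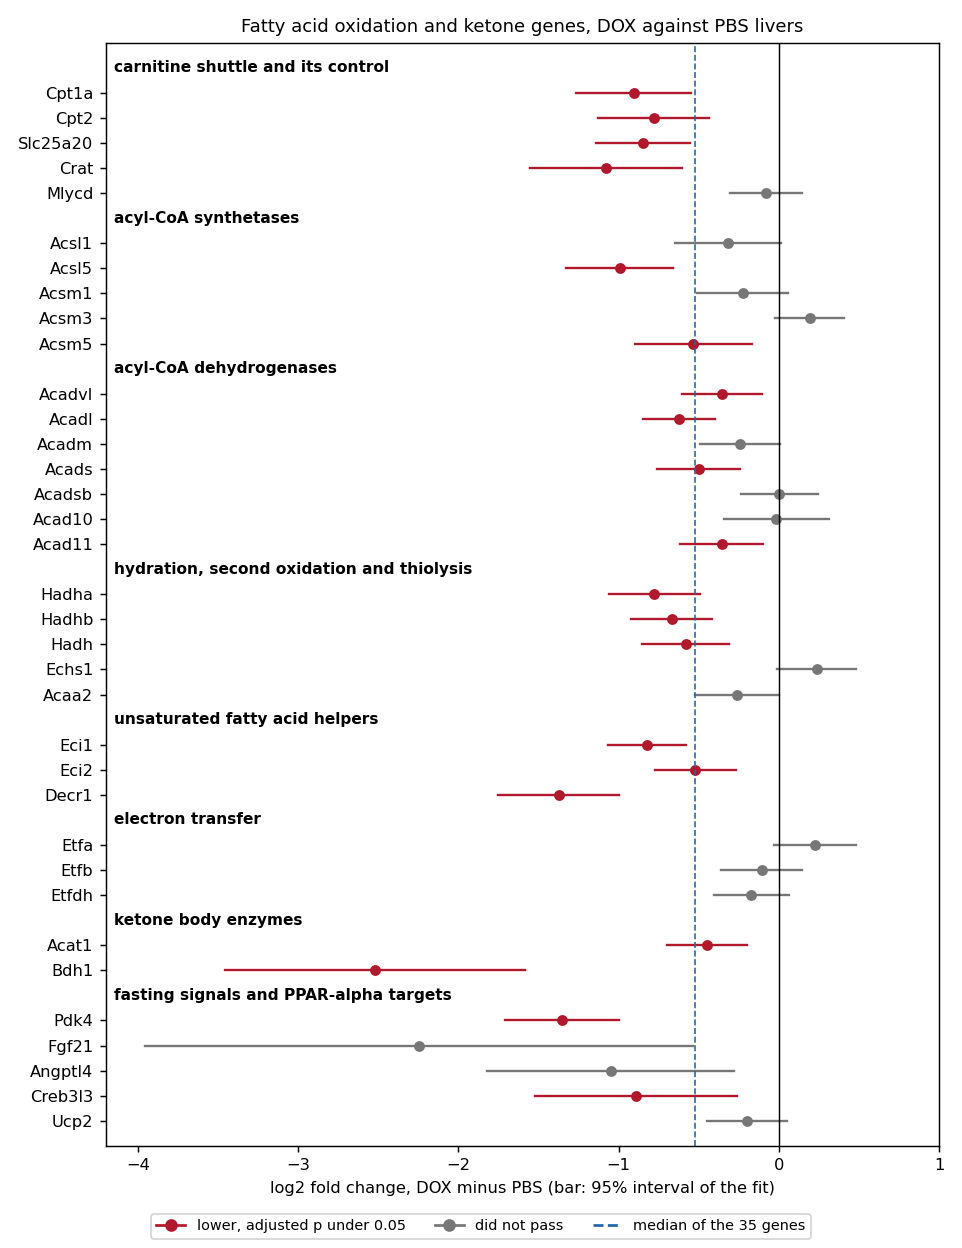
Log2 fold change of each of the 35 genes (horizontal axis, DOX minus PBS) with the 95% interval of the edgeR fit, grouped by role. Red genes passed the test and lie to the left of 0 without exception, grey genes did not pass, and the dashed line marks the median of -0.52.

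The scale of these values matters for the smaller changes. Libraries were scaled by TMM, a factor that allows for a few abundant genes taking up counts, and the factors were 1.02 to 1.08 in PBS and 0.933 to 0.970 in DOX. Scaling by library size alone shifted the median of all genes by -0.16 and turned the split of all called genes from 1975 higher and 2062 lower into 1028 higher and 3429 lower. On that scale 28 of the 35 genes were lower and 0 higher. Mitochondrially encoded transcripts took 3.45 to 4.58% of the counts in PBS and 5.11 to 6.81% in DOX. With those transcripts taken out before fitting, 20 of the 35 genes were again lower.

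The carnitine shuttle was affected at 4 of its 5 genes. Cpt1a (chromosome 19, 3322326 to 3385735, GRCm38), which makes long-chain acylcarnitines on the outer membrane and is the main control point of the pathway, was at 434, 511 and 612 CPM in PBS 1 to 3 and at 230, 330 and 270 CPM in DOX 1 to 3. The highest DOX value thus lay below the lowest PBS value, and Cpt1a was 1.87-fold lower (log2 fold change -0.91, SE 0.16, edgeR adjusted p = 0.00276). Slc25a20, the carrier that exchanges acylcarnitine for carnitine across the inner membrane, was at 110, 131 and 123 CPM in PBS and at 67.9, 79.0 and 54.9 CPM in DOX. The groups were again apart, with a log2 fold change of -0.85 (SE 0.13, edgeR adjusted p = 0.00143). Cpt2, which turns acylcarnitine back into acyl-CoA inside, was at 88.8, 104 and 109 CPM in PBS and at 56.2, 73.3 and 46.1 CPM in DOX. Its log2 fold change was -0.78 (SE 0.16, edgeR adjusted p = 0.00525), so the 3 consecutive steps of the shuttle fell by similar amounts, from 1.72-fold to 1.87-fold. Crat, which moves short acyl groups and acetyl groups onto carnitine, was at 67.0, 92.6 and 96.1 CPM in PBS and at 39.9, 51.6 and 29.5 CPM in DOX. It was 2.11-fold lower (log2 fold change -1.08, SE 0.21, edgeR adjusted p = 0.00657) and had the largest change of the shuttle genes. The exception was Mlycd, which removes malonyl-CoA, the inhibitor of Cpt1a, at a log2 fold change of -0.08 (edgeR adjusted p = 0.586) that turned to 0.00 without PBS 3.

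**Figure D2:**
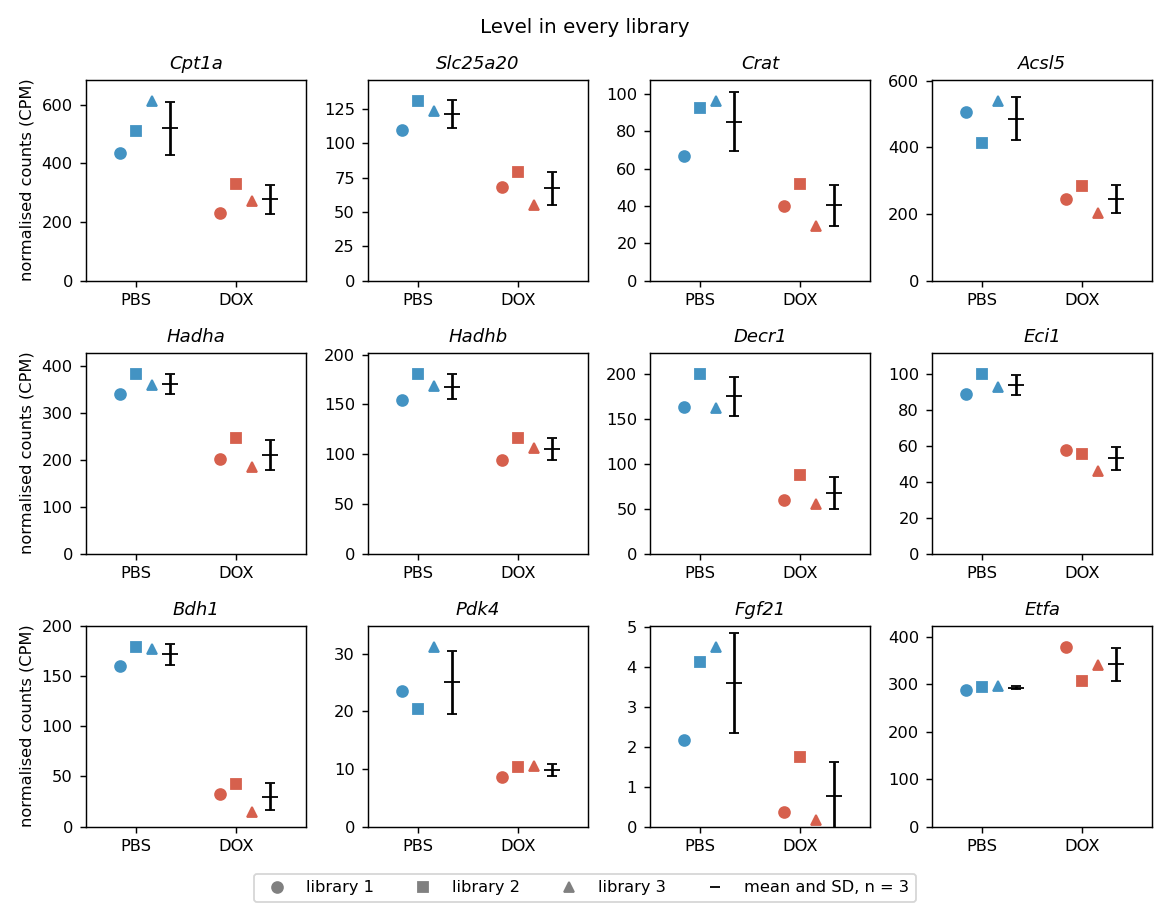
Normalised counts (CPM) of 12 of the genes in each library, PBS in blue and DOX in red, with the mean and SD of 3 libraries beside them and every vertical axis starting at 0. In 11 of the 12 genes all DOX points lie below all PBS points, and in Etfa they lie above. The 12 were picked for display, and all are among the 28 of 35 genes whose groups do not overlap (44.1% of all genes tested).

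Among the 5 acyl-CoA synthetases, which activate fatty acids before they enter the pathway, 2 were lower. Acsl5, a long-chain synthetase, was at 506, 413 and 538 CPM in PBS 1 to 3 and at 244, 285 and 202 CPM in DOX 1 to 3. It was 1.99-fold lower (log2 fold change -0.99, SE 0.15, edgeR adjusted p = 0.00126), with a gap of more than 100 CPM between the groups. Acsm5, a medium-chain synthetase, was at 78.8, 75.1 and 83.3 CPM in PBS and at 49.8, 71.6 and 42.4 CPM in DOX, where DOX 2 lay close to the PBS range. Its log2 fold change of -0.53 (SE 0.17, edgeR adjusted p = 0.0349) did not pass when any library but DOX 2 was left out, with adjusted p-values of 0.0844, 0.0679 and 0.108 without PBS 1, 2 and 3 and of 0.123 and 0.107 without DOX 1 and DOX 3. Acsl1, the other long-chain synthetase, had a log2 fold change of -0.32 (edgeR adjusted p = 0.139) and passed without DOX 2 (-0.47, adjusted p = 0.0163). Acsm1 had a log2 fold change of -0.23 (edgeR adjusted p = 0.215). Acsm3 was at 63.6, 59.9 and 68.6 CPM in PBS and at 72.5, 76.7 and 70.2 CPM in DOX, a pattern in which the DOX values were the higher ones without overlap. The log2 fold change of 0.19 (SE 0.10) did not pass (edgeR adjusted p = 0.167). In the annotation 39.8% of the Acsm3 exon bases lie opposite exons of Eri2, and whether counting used the strand is not given in the sources used here, but Eri2 had 1249 counts over all libraries against 15867 of Acsm3.

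The acyl-CoA dehydrogenases take the first electrons from the chain, each for its own range of chain lengths, and 4 of 7 fell. Acadl, for long chains, was at 214, 221 and 225 CPM in PBS 1 to 3 and at 141, 150 and 136 CPM in DOX 1 to 3. Both groups were tight and far apart, and Acadl was 1.54-fold lower (log2 fold change -0.62, SE 0.10, edgeR adjusted p = 0.00179). Acads, for short chains, was at 153, 153 and 176 CPM in PBS and at 118, 124 and 97.9 CPM in DOX (log2 fold change -0.50, SE 0.12, edgeR adjusted p = 0.0104). Acadvl, for very long chains, fell by 0.36 on the log2 scale (edgeR adjusted p = 0.0358) and Acad11, which acts on long chains outside the classical series, also fell by 0.36 (edgeR adjusted p = 0.0425). Both passed without DOX 2, but not without any other library. Without PBS 1, PBS 2, PBS 3, DOX 1 or DOX 3, the edgeR adjusted p was 0.0819, 0.112, 0.0958, 0.0649 or 0.114 for Acadvl and 0.0852, 0.122, 0.116, 0.137 or 0.113 for Acad11, so that 2 of 7 dehydrogenases, Acadl and Acads, passed each time.

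Acadm, the medium-chain dehydrogenase, was at 403, 462 and 446 CPM in PBS 1 to 3 and at 375, 378 and 356 CPM in DOX 1 to 3. The DOX values were below the PBS values without overlap. The log2 fold change of -0.24 (SE 0.11) did not pass (edgeR adjusted p = 0.136). Acadm passed with scaling by library size alone (-0.40, adjusted p = 0.0177) and with limma on log2(FPKM + 1) (-0.39, adjusted p = 0.0191). Acadsb, for short branched chains, was at 0.00 (edgeR adjusted p = 0.988), with values of -0.07 without PBS 2 and -0.06 without DOX 2. Acad10 was at -0.02 (edgeR adjusted p = 0.95), with values of 0.14 without PBS 3 and 0.07 without DOX 3, and its longest transcript is 95.3% identical to one of its relative Acad12 over 1614 bases, so reads of this pair can be hard to tell apart. Acadvl shares 42.9% of its exon bases with exons of Dvl2 on the opposite strand. Dvl2 had 1915 counts against 83092 of Acadvl.

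Acadvl passed and Acadm did not, at log2 fold changes of -0.36 and -0.24, but a difference between these genes was not tested. The hexamer AGGTCA is the core that PPAR-alpha and other nuclear receptors recognise. The sequences upstream of the very-long-chain and medium-chain genes each hold it and are shown here. Both are from the RefSeq annotation of GRCm38.p6, 5′ to 3′ on the minus strand, the strand of both genes, and they end at the base before the annotated start. Capitals mark AGGTCA or its reverse complement TGACCT. The first is chr11:70015429-70015678 and the second chr3:153944644-153944893.
Acadvl: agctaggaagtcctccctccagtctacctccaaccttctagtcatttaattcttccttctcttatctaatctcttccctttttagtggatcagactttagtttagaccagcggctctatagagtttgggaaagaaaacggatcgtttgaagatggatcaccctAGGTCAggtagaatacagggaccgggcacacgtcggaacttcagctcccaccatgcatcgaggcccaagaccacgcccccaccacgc
Acadm: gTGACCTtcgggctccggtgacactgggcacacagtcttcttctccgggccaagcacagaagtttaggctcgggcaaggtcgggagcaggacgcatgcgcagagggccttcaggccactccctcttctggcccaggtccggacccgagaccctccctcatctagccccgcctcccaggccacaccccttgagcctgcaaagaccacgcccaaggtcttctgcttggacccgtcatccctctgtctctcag

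The hexamer was searched on both strands in windows from 250 bases before to 50 bases after each annotated start. It was present in 6 of the 33 windows of the 30 genes that had an entry (18.2%), those of Acadm, Acsm1, Echs1, Creb3l3, Acadvl and Cpt1a, and in 16.3% of all 32851 windows. The share among the pathway genes was thus near that of all promoters. The longer spaced repeat known as DR1, the form bound by PPAR-alpha with its partner RXR, was found in 0 of the 33 windows and in 0.381% of all windows, and the motif TCAAGGTCA of estrogen-related receptors in 0 of the 33 and 0.423%. Both longer motifs can contain or overlap the hexamer. A match is a description of letters in this window and not a binding site. Crat, Acaa2, Decr1, Acat1 and Angptl4 had no entry.

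Of the 5 genes for the steps after dehydrogenation, 3 were lower. The trifunctional protein carries out hydration, the second oxidation and thiolysis of long chains with an alpha subunit, Hadha, and a beta subunit, Hadhb. Hadha was at 340, 383 and 361 CPM in PBS 1 to 3 and at 201, 246 and 185 CPM in DOX 1 to 3, with a log2 fold change of -0.78 (SE 0.13, edgeR adjusted p = 0.00199). Hadhb was at 155, 180 and 169 CPM in PBS and at 94.3, 116 and 106 CPM in DOX, with a log2 fold change of -0.67 (SE 0.11, edgeR adjusted p = 0.00216). The subunits therefore fell by similar factors of 1.71 and 1.59, and library 2 was the highest for both in each group. The lowest library was PBS 1 for both in PBS, but DOX 3 for Hadha and DOX 1 for Hadhb in DOX. The annotation holds 2 processed pseudogenes close to Hadhb in sequence (99.8% identical over 1428 bases for Gm13910 and 97.6% over 1426 bases for Gm9108), so its counts depend on how reads with several matches were treated.

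Hadha and Hadhb lie head to head on chromosome 5, with annotated starts at 30154980 on the minus strand and 30155253 on the plus strand, 273 bases apart. Between them lies a stretch of 85 bases outside annotated exons that serves as upstream sequence for both genes. It is printed because the genes on its sides fell together, 5′ to 3′ on the plus strand, at chr5:30155163-30155247 (GRCm38.p6), with the letters GGGCGG of a GC box, the element bound by Sp1, in capitals.
Hadhb: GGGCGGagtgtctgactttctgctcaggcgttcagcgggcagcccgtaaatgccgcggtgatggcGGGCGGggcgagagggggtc
GGGCGG, on either strand, was present in 19 of the 33 windows of the pathway genes (57.6%) and in 35.7% of all windows. Genes that passed and genes that did not are both among those with it, for example Acadl and Acadsb.

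Hadh, the dehydrogenase of short and medium chains at the second oxidation, was at 304, 319 and 339 CPM in PBS 1 to 3 and at 223, 236 and 183 CPM in DOX 1 to 3 (log2 fold change -0.58, SE 0.13, edgeR adjusted p = 0.00638). The groups did not overlap. Echs1, the hydratase for short chains, went the other way, at 251, 238 and 277 CPM in PBS and at 314, 297 and 292 CPM in DOX. Every DOX value was above every PBS value, but the log2 fold change of 0.23 (95% interval -0.01 to 0.48) did not pass (edgeR adjusted p = 0.141). Acaa2, the thiolase for shorter chains, was at 581, 645 and 578 CPM in PBS and at 518, 529 and 457 CPM in DOX. Its log2 fold change of -0.26 (SE 0.12) did not pass (edgeR adjusted p = 0.126). Acaa2 passed with scaling by library size alone (-0.42, adjusted p = 0.0185) and with limma on log2(FPKM + 1) (-0.42, adjusted p = 0.0282).

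The 3 enzymes that prepare unsaturated chains for the standard steps were lower. Decr1 (chromosome 4, 15917240 to 15945377, GRCm38), the reductase of dienoyl-CoA intermediates, was at 163, 200 and 162 CPM in PBS 1 to 3 and at 60.1, 87.5 and 54.6 CPM in DOX 1 to 3. It was 2.59-fold lower (log2 fold change -1.37, SE 0.17, edgeR adjusted p = 0.000582), the largest change among the enzymes of beta-oxidation proper described here. Eci1, an isomerase that moves double bonds into place, was at 88.9, 99.8 and 92.9 CPM in PBS and at 57.7, 55.6 and 45.8 CPM in DOX, which is 1.77-fold lower (log2 fold change -0.82, SE 0.11, edgeR adjusted p = 0.000679). Eci2, a related isomerase found in mitochondria and peroxisomes, was at 154, 187 and 165 CPM in PBS and at 107, 117 and 129 CPM in DOX (log2 fold change -0.52, SE 0.12, edgeR adjusted p = 0.00726). None of the 3 genes had overlapping groups, and each passed in all 15 alternative settings tried.

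No electron transfer gene passed. Of Etfa and Etfb, the subunits of electron transfer flavoprotein, and Etfdh, the oxidoreductase that hands its electrons to ubiquinone, 0 of 3 passed by edgeR, with 0 at an unadjusted p under 0.05 and 0 by DESeq2. Etfa was at 289, 294 and 295 CPM in PBS 1 to 3 and at 378, 308 and 340 CPM in DOX 1 to 3, all DOX values above all PBS values, at a log2 fold change of 0.22 (95% interval -0.03 to 0.48, edgeR adjusted p = 0.176). Etfdh was at 206, 205 and 208 CPM in PBS and at 179, 200 and 170 CPM in DOX, all DOX values below, at -0.17 (95% interval -0.41 to 0.06, edgeR adjusted p = 0.257). With scaling by library size alone Etfdh passed (-0.33, adjusted p = 0.0295), as it did with limma on log2(FPKM + 1) (-0.33, adjusted p = 0.0243). Etfb was at -0.11 with a 95% interval of -0.36 to 0.15 (edgeR adjusted p = 0.519), and 53.0% of its exon bases are shared on the same strand with the annotated gene Gm45233. The lowest bound of the 3 intervals, -0.41 for Etfdh, lay inside the 95% interval of Acadl (-0.85 to -0.40). A difference between the genes was not tested.

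Both ketone enzymes were lower, by very different amounts. Bdh1 (chromosome 16, 31422297 to 31458901, GRCm38), which interconverts acetoacetate and beta-hydroxybutyrate on the inner membrane, was at 160, 179 and 177 CPM in PBS 1 to 3 and at 32.9, 42.1 and 14.8 CPM in DOX 1 to 3. The highest DOX value was far below the lowest PBS value, and within DOX the values spread more widely, from 467 counts in DOX 3 to 1428 counts in DOX 2. Bdh1 was 5.74-fold lower (log2 fold change -2.52, SE 0.38, edgeR adjusted p = 0.0068), and the log2 fold change ranged from -2.83 to -2.20 over the alternatives. The annotated antisense gene Gm15743 covers 13.7% of its exon bases but had 5 counts in total against 25467 of Bdh1. Acat1, the thiolase that joins or splits acetoacetyl-CoA, was at 241, 249 and 249 CPM in PBS and at 177, 201 and 163 CPM in DOX (log2 fold change -0.45, SE 0.11, edgeR adjusted p = 0.0138). Without DOX 3 it was at -0.38 and did not pass (adjusted p = 0.0554), leaving Bdh1 as the ketone enzyme lower in that setting.

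Of the 5 fasting genes, with a median of -1.05, 2 passed. Libraries of a group spread widely for Fgf21, Angptl4 and Creb3l3. Pdk4 (chromosome 6, 5483351 to 5496278, GRCm38), the kinase that shuts pyruvate dehydrogenase when fat is burned, was at 23.4, 20.5 and 31.1 CPM in PBS 1 to 3 and at 8.65, 10.3 and 10.5 CPM in DOX 1 to 3. It was 2.55-fold lower with a tight DOX group (log2 fold change -1.35, SE 0.16, edgeR adjusted p = 0.00034). Creb3l3, a membrane-bound transcription factor that acts with PPAR-alpha on fasting genes, was at 191, 267 and 257 CPM in PBS and at 101, 188 and 96.8 CPM in DOX, so that DOX 2 was just below PBS 1. Its log2 fold change of -0.89 (SE 0.27, edgeR adjusted p = 0.0439) did not pass without PBS 2 (adjusted p = 0.125), PBS 3 (0.131), DOX 1 (0.125) or DOX 3 (0.0854), nor by DESeq2 (0.0533).

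Fgf21, the fasting hormone made by hepatocytes, was at 2.17, 4.13 and 4.50 CPM in PBS 1 to 3 and at 0.370, 1.74 and 0.159 CPM in DOX 1 to 3, from 94, 181 and 192 counts and 14, 59 and 5 counts. The groups did not overlap, but DOX 2 had several times the value of the other DOX libraries and was nearer to PBS 1. The log2 fold change of -2.24 (SE 0.72) did not pass (edgeR adjusted p = 0.0581), and without DOX 2 it was -3.70 and passed (adjusted p = 0.000167). Angptl4, a secreted inhibitor of lipoprotein lipase, was at 96.9, 96.5 and 129 CPM in PBS and at 29.1, 64.8 and 62.0 CPM in DOX, with DOX 1 lowest. Its log2 fold change of -1.05 (SE 0.32) did not pass (edgeR adjusted p = 0.0542), while it passed by DESeq2 (adjusted p = 0.0247) and, at -0.76, without DOX 1 (adjusted p = 0.00799). Ucp2, a carrier of the inner membrane, was at -0.20 (edgeR adjusted p = 0.216).

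The libraries of a group were ordered alike by many of the 35 genes. DOX 2 was the highest DOX library in 28 of the 35 genes, by a median of 0.16 on the log2 scale from its group's mean, and DOX 3 was the lowest in 26, at -0.13. In PBS, library 3 was highest in 22 and library 1 lowest in 19. Leaving out DOX 2 gave 22 genes lower and leaving out DOX 3 gave 15, the ends of the range over libraries left out. Of the 20 genes lower in the main test, 15 were lower in all 15 alternative settings, and the exceptions were Acsm5, Acadvl, Acad11, Acat1 and Creb3l3.

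Levels between genes can be compared only per length of transcript, for which the deposited FPKM (counts scaled by gene length and library total) were used. Acaa2 had the highest level of the 35 in both groups, at 424 ± 36.8 FPKM in PBS and 316 ± 18.1 FPKM in DOX (SD, n = 3), followed in both by Etfb at 259 ± 30.5 and 215 ± 13.5 FPKM. Fgf21 had the lowest in both, at 3.997 ± 1.35 and 0.747 ± 0.842 FPKM. The order shifted where genes changed unequally. Echs1 went from rank 6 to rank 3 (180 ± 8.33 and 190 ± 6.07 FPKM), Decr1 from rank 19 to rank 28 (62.4 ± 9.08 and 21.5 ± 5.28 FPKM) and Bdh1 from rank 24 to rank 32 (49.7 ± 3.05 and 7.71 ± 3.47 FPKM). Neighbours in the order often lay within each other's spread, as Acadvl (190 ± 8.28) and Hadh (189 ± 6.56) did in PBS. These ranks rest on the gene lengths behind the FPKM, which ran from 0.181 times the merged exons of the GENCODE annotation for Echs1 (1502 against 8286 bases) to 5.28 times for Etfa (9685 against 1835 bases, rank 26 in PBS and 22 in DOX). The ratio of a gene between groups does not depend on its length.

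**Figure D3:**
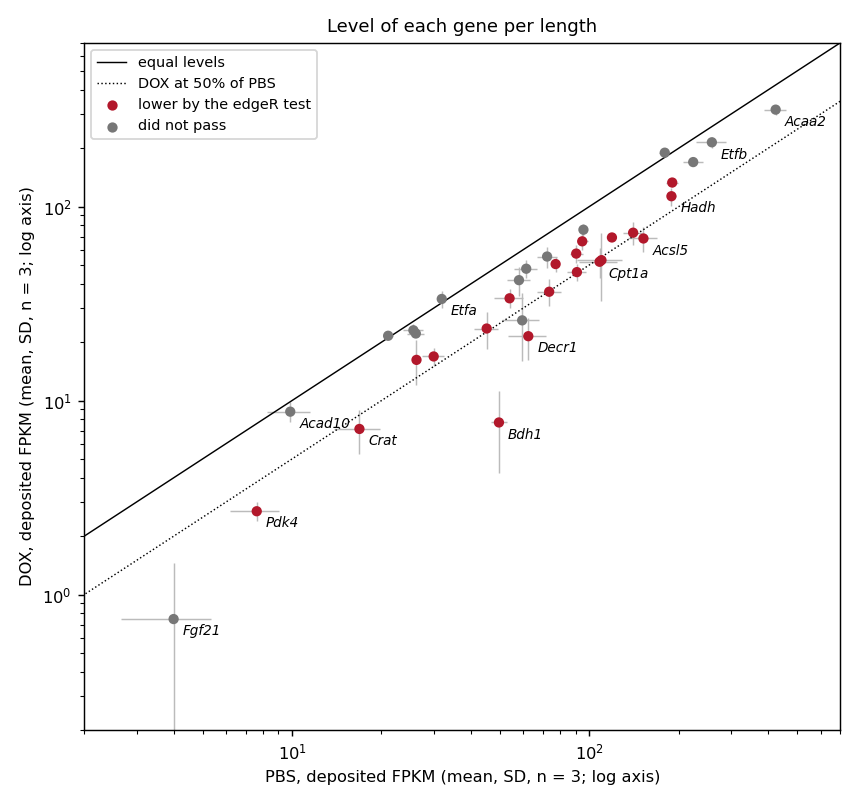
Mean deposited FPKM of each of the 35 genes in DOX (vertical log axis) against PBS (horizontal log axis), with bars of 1 SD over 3 libraries. The solid line marks equal levels and the dotted line DOX at 50% of PBS, with Bdh1 (49.7 in PBS, 7.71 in DOX) far below the dotted line and Etfa and Echs1 on or just above the solid one.

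The related lists below stand beside all genes tested, of which 13.5% were higher and 14.0% lower. Of 36 tested genes among 40 further mitochondrial fatty acid and ketone genes, 7 were higher (19.4%) and 8 lower (22.2%), not far from those shares. Their median was -0.11, and scaling by library size alone gave 3 higher and 13 lower. Leaving out PBS 3 gave 4 higher and 4 lower, leaving out DOX 1 or DOX 3 gave 4 higher and 5 lower, leaving out PBS 1 gave 4 higher and leaving out PBS 2 gave 3 higher. Acot2, a mitochondrial thioesterase that splits acyl-CoA, was 5.15-fold lower, with means of 35.6 ± 8.15 CPM for PBS and 6.93 ± 1.42 CPM for DOX (SD over 3 libraries, edgeR adjusted p = 8.08e-05), though it belongs to a family of closely similar genes. Slc22a5, the carnitine importer of the cell membrane, fell from 22.1 ± 4.74 to 10.9 ± 1.32 CPM (edgeR adjusted p = 0.00175) and Acsf2, a further synthetase, fell from 171 ± 18.5 to 62.0 ± 21.0 CPM (edgeR adjusted p = 0.0022). Slc25a29, a carrier for basic amino acids, rose from 1.98 ± 0.594 to 5.73 ± 0.915 CPM (edgeR adjusted p = 0.00191).

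Of 34 genes listed here as PPAR-alpha targets, among them peroxisomal and microsomal ones, 23 were lower and 1 higher, with a median of -0.75. Without PBS 2 or without DOX 1, 2 were higher. Acot1 had a mean of 56.3 ± 1.89 CPM in the PBS libraries and of 5.41 ± 1.38 CPM in the DOX libraries (edgeR adjusted p = 1.2e-06), Acot3 at 103 ± 15.5 and 17.2 ± 1.86 CPM (edgeR adjusted p = 1.31e-06), the pantetheinase gene Vnn1 at 28.4 ± 5.34 and 3.42 ± 0.498 CPM (edgeR adjusted p = 2.24e-06), and the fatty acid hydroxylase gene Cyp4a31 at 36.7 ± 5.45 and 4.37 ± 1.46 CPM (edgeR adjusted p = 3.94e-05). Ppara itself was at 165, 187 and 230 CPM in PBS 1 to 3 and at 70.2, 125 and 76.9 CPM in DOX 1 to 3, a log2 fold change of -1.10 (edgeR adjusted p = 0.0077). Among 23 genes of the transcriptional control of the pathway it was the 1 lower gene, against 6 higher (median 0.13). The 6 included Crtc2, a coactivator of CREB (24.8 ± 1.89 CPM in PBS, 49.7 ± 9.90 in DOX, edgeR adjusted p = 0.000855), Klb, the coreceptor of Fgf21 (log2 fold change 0.76, edgeR adjusted p = 0.00791), and Ncoa1, a nuclear receptor coactivator (log2 fold change 0.46, edgeR adjusted p = 0.012, and 0.0598 without PBS 2). With scaling by library size alone this list had 4 higher and 3 lower and a median of -0.03, and without PBS 3 or without DOX 3 it had 3 higher.

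Pyruvate dehydrogenase, its phosphatases and its kinases other than Pdk4 gave 0 of 10 called by edgeR in either direction (median 0.06). There were 0 at an unadjusted p under 0.05 and 0 by DESeq2, and 1 was lower without DOX 2. A pair of further lists held other mitochondrial genes, whose RNA levels are not a measure of mitochondrial content. Of 38 nuclear genes for the citric acid cycle, respiratory chain, import and upkeep, 8 were higher and 1 lower (median 0.16), and without PBS 3 or without DOX 1 there were 5 higher, while 2 were lower without DOX 2. This direction rests on the scaling, since library size alone gave 5 higher and 3 lower and limma on log2(FPKM + 1) gave 0 higher and 4 lower. Tomm20 (0.55), Sdhb (0.53) and Timm23 (0.55) were higher and Polg, the mitochondrial DNA polymerase, was lower (-0.51), at edgeR adjusted p-values of 0.00643, 0.00776, 0.0101 and 0.00606. Of the 13 mitochondrially encoded genes 7 were higher and 0 lower (median 0.77), with 4 higher by library size alone or without PBS 3 and 1 higher by limma.

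**Figure D4:**
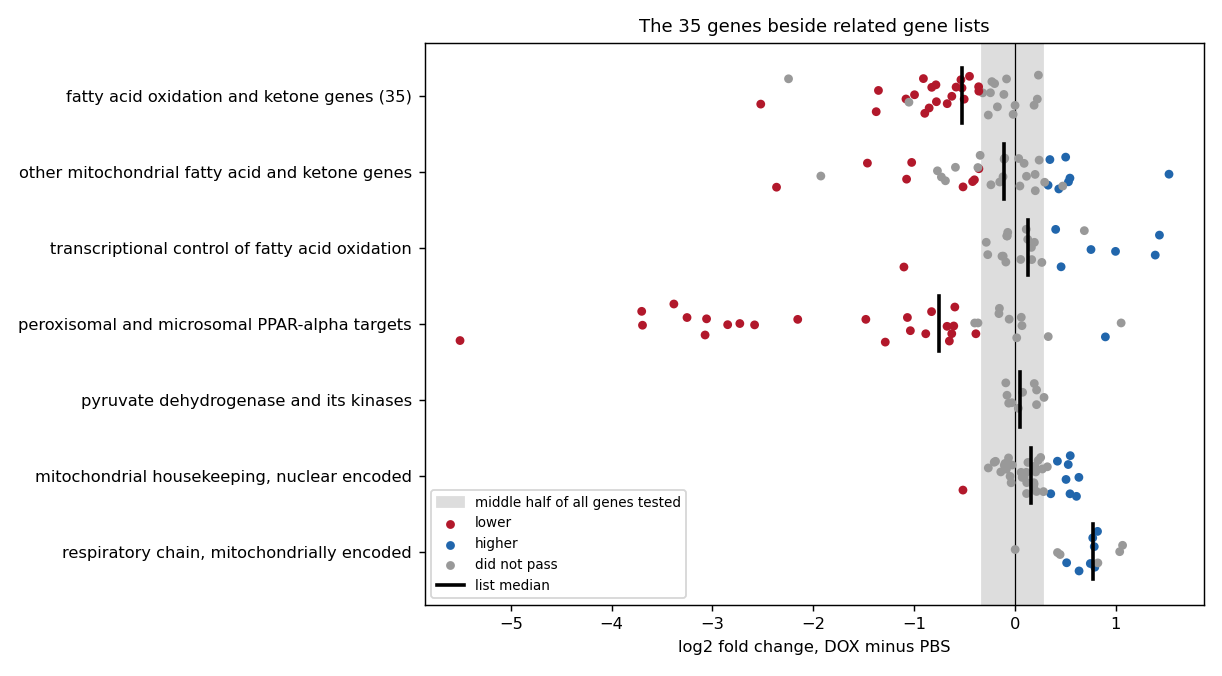
Log2 fold change (horizontal axis, DOX minus PBS) of each tested gene in the 35-gene set and in 6 related lists, with a black bar at each list's median and a grey band over the quartiles of all genes tested (-0.33 to 0.28). The 35 genes (median -0.52) and the list labelled peroxisomal and microsomal PPAR-alpha targets (median -0.75) lie mostly left of the band. The nuclear mitochondrial genes (median 0.16) lie mostly inside it.

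In bulk liver, fewer hepatocytes and less RNA per hepatocyte cannot be told apart, so levels of cell type markers are given beside these changes. Of 13 hepatocyte markers, 5 were higher and 0 lower in DOX, and their summed level was 102990 to 109820 CPM in PBS and 113480 to 135140 CPM in DOX (4 higher and 1 lower by library size alone). Summed as deposited FPKM, the groups overlapped, at 56529 to 57680 in PBS and 56294 to 63271 in DOX. Most of the CPM sum was Alb, which did not pass (70083 to 72445 CPM in PBS, 70899 to 92734 CPM in DOX). Bile duct markers had 1 higher and 3 lower of 10 (803 to 973 CPM in PBS, 560 to 811 CPM in DOX). Most of that sum was Spp1, which did not pass (634 to 765 CPM in PBS, 424 to 634 CPM in DOX). Stellate cell markers had 0 higher and 4 lower of 11 (1491 to 1876 and 1078 to 1427 CPM), and lymphocyte markers 0 higher and 2 lower of 7 tested (36.4 to 44.9 and 26.4 to 29.8 CPM). Most of the lymphocyte sum was Ptprc, 1 of the 2 lower genes (31.5 to 37.7 CPM in PBS, 24.8 to 26.7 CPM in DOX). Endothelial markers had 6 higher and 0 lower of 10 (288 to 340 and 363 to 425 CPM), macrophage markers 4 higher and 1 lower of 12 (1492 to 1597 and 1644 to 1684 CPM, but 1003 to 1167 and 963 to 1041 as FPKM), and neutrophil markers 1 higher and 2 lower of 5 tested (44.1 to 66.8 and 41.4 to 88.6 CPM). The part of these cells in the changes of the 35 genes was not tested. Of other tissues, 7 striated muscle markers summed to 0.137 to 0.207 CPM in PBS and 0.159 to 0.206 CPM in DOX. The 4 adipose markers summed to 1.35 to 2.07 CPM in PBS and 0.794 to 1.15 CPM in DOX, nearly all of it Cidea, with Adipoq, Retn and Ucp1 at 0.0317 CPM or less in each library.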

How the data were processed

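RNA of 6 mouse liver samples was extracted with an RNeasy kit and made into SMARTER mRNA-seq libraries, per the labels. The authors deposited raw counts per gene symbol and FPKM values. The deposited FPKM equal the deposited counts divided by a fixed gene length and the library total (99.9% of the implied lengths lay within 0.01 bases of a whole number), so they hold no further measurement. The submitters' processing notes list GRCm38, mm10 and hg38 with no role. Which aligner, counting program, strand setting and annotation they used is not given in the sources used here. The table held 0 rows without a gene name and 0 columns of other samples.

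Columns were matched to labels by title, 3 PBS and 3 DOX. The 35 genes were found by symbol. They, the related lists and the rule for the values given were chosen with earlier results of these data known. Values in each library are given for called genes with an absolute log2 fold change of at least 0.5 and for genes that did not pass whose groups were apart; of each related list, the up to 4 called genes of smallest p are named, except the mitochondrially encoded genes, which are given as a group. The test was edgeR 4.0.16 (R 4.3.3), quasi-likelihood with robust estimation, TMM scaling and filterByExpr (minimum count 10, minimum total 15), on 14681 genes, with Benjamini-Hochberg adjustment over all of them and a threshold of 0.05. The biological coefficient of variation was 0.155. SE is the log2 fold change over the root of F. Alternatives were other scalings, no filter, DESeq2 1.42.0, limma 3.58.1 on log2(FPKM + 1) and log2(FPKM + 0.1), the replicate block and each library left out. Same-group libraries differed by chi-square values of 30.0 to 81.4 per degree of freedom, above sampling noise, so none was taken as a copy. The fit was tested on simulated counts of 14681 genes. Among 100 genes moved 2-fold edgeR found 68% and DESeq2 71%, among 100 moved 4-fold both found 92%, and 6.43% and 18.1% of their calls were false. The moved genes were drawn at random over all levels and were far fewer than the 27.5% called in the data, so these rates need not hold here. Near-identical transcripts (at least 95% over 100 bases) and exon overlaps came from GENCODE M21, promoters from RefSeq, both on GRCm38.p6. Intervals cover counting error and the spread between libraries only.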

Additional observations from a re-analysis of the deposited data

How the results depend on the processing

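The count of the 35 genes that were lower, 20, was 20 with relative log expression factors, DESeq2 and the replicate block, 19 without a filter on low counts, 28 with library size alone, 28 with limma on log2(FPKM + 1) or log2(FPKM + 0.1) and 22 with limma without a filter. It was 15 to 22 with 1 library left out and 20 without the mitochondrially encoded genes, a setting chosen after seeing the data. The count of higher genes was 0 in each of these 15 settings. Genes lower both with library size alone and with limma after the filter, but not in the main test, were Acsl1, Acsm1, Acadm, Acaa2, Etfdh, Fgf21, Angptl4 and Ucp2. The replicate numbers share no more than a number: deviations of same-numbered libraries correlated at 0.086, -0.073 and -0.134, and not every library correlated best with its own number. The direction turned for genes near 0: Mlycd without PBS 3 (0.0034, lowest value with a library left out -0.13), Acad10 without PBS 3 (0.14) and without DOX 3 (0.07), and Acadsb with library size alone (-0.15), without a filter (-0.0088), with limma (-0.15 at both pseudocounts and -0.15 without a filter), without PBS 2 (-0.0742) and without DOX 2 (-0.06), against a highest value with a library left out of 0.0642. The cause was not tested. With the replicate block the dehydrogenases had 2 lower, since Acadvl (adjusted p = 0.0848) and Acad11 (0.0766) did not pass, Fgf21 (0.0213) and Angptl4 (0.00652) passed, and the further mitochondrial list had 4 higher. The synthetases had 4 lower with library size alone and 1 with limma without a filter, and without each library but DOX 2. The fasting genes had 5 lower with library size alone, 4 with the block, and 1 without a filter, without PBS 2, without PBS 3 or without DOX 3. Slc25a29 was at 0.87 with limma on log2(FPKM + 1) against 1.53. Over all genes, 1975 higher and 2062 lower became 893 and 3151 with limma on log2(FPKM + 1), 936 and 3188 at a pseudocount of 0.1, 544 higher with limma without a filter, 1233 and 1305 without PBS 2, 1208 and 1329 without DOX 3, and 1229 higher without PBS 3. With 3 libraries a group, changes under 2-fold can be missed at this depth and spread, so genes that did not pass are not shown to be equal.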
